A study of Mus musculus with 12 samples.

Results

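The apoptosis and death receptor signaling genes were followed in the cortex of mice that carry or lack a working Fas, the receptor at the head of this pathway. The members were 34 genes, found as the probes outside the array's controls whose gene name in the array files is on the list, out of 29608 gene names on the array. They were printed on 50 spots, 22 genes on 1 spot and 12 on more, with at most 4 spots for a gene, and 28 of the 34 passed the filters on spot quality. The 12 cortices came from 3 groups of 4 female mice of about 12 weeks, all taken at diestrus. MRL/lpr is the lupus-prone strain MRL/MpJ-Fas lpr/lpr, with a loss-of-function Fas. Fn14ko are MRL/lpr mice that also lack Fn14, the receptor for the cytokine TWEAK encoded by Tnfrsf12a. They were backcrossed littermates of the MRL/lpr mice, so both groups share the lpr Fas. MRL/+ is the control strain, labelled MRL/MpJ, with an intact Fas. It was bought from another breeder than the one that bred both lpr groups, so the origin of the mice and the Fas genotype cannot be told apart. The cortex is a mixture of cell types, and in such tissue fewer cells of a type and less RNA per cell cannot be told apart.

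Fas and related death receptors, once bound by their ligands, gather the adaptor FADD and the initiator caspase-8, which c-FLIP (Cflar) holds in check. Caspase-8 cuts the executioner caspases directly, and it cuts the BH3-only protein BID, whose fragment carries the signal to mitochondria. There BAX and BAK form pores that BCL2 and its relatives oppose, cytochrome c leaves and joins APAF1 and caspase-9 in the apoptosome, and inhibitor of apoptosis proteins such as XIAP block the caspases that follow. When caspase-8 is not active, RIPK1 and RIPK3 can instead activate MLKL, which breaks the plasma membrane in necroptosis, while caspase-1 and its relatives process inflammatory cytokines and drive pyroptosis.

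The sequence upstream of 3 genes is given because their values by mouse are described at length below. By limma Bid was lower in MRL/lpr than in Fn14ko both as planned and with a limit on the local background that is explained below. With that limit, but not as planned, Mlkl was higher in MRL/lpr than in either other group and Casp1 higher than in MRL/+. Xiap, the member called between MRL/lpr and MRL/+, has more than 1 start in the table and is not shown. Each line holds the 250 bases before the RefSeq start in GRCm38.p6, 5′ to 3′ on the gene's strand. The stretch lies at chr6:120916825-120917074 on the minus strand for Bid, at chr8:111338206-111338455 on the minus strand for Mlkl and at chr9:5298267-5298516 on the plus strand for Casp1. Capitals mark matches to the letters of 5 motifs searched on both strands.
Bid: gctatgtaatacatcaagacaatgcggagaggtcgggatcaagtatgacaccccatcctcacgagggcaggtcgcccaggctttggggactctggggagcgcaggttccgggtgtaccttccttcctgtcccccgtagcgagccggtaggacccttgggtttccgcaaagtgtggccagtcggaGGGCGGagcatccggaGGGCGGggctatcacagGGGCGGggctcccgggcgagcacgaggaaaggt
Mlkl: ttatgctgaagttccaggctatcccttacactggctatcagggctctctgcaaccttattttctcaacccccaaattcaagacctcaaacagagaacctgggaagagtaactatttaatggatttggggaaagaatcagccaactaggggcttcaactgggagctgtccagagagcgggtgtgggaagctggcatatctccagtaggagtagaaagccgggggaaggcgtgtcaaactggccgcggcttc
Casp1: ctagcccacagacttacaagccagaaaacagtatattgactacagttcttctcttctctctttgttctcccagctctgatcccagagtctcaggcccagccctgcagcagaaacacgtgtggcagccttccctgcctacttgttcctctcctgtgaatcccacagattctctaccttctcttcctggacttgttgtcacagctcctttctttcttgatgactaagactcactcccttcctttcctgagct
The Bid stretch held 3 matches to the GC box GGGCGG and none to the other motifs. The Mlkl and Casp1 stretches held no match to GGGCGG, to the interferon-gamma site TTCNNNGAA, to the core of the interferon-stimulated response element, to CCAAT or to TATAAA. Of the 34 genes, 31 had an entry in the table, and GGGCGG was in 21 of these, against 32.7% of 32851 promoters of the same length. TTCNNNGAA was in 2 of the 31 (7.02% of all), the interferon-stimulated response element core in 0 (2.98%), CCAAT in 9 (33.8%) and TATAAA in 2 (12.4%). A gene was counted if any of its entries held the motif, while the shares are over single promoters. Genes with more than 1 start thus had more chances to match, and no enrichment is read from these counts. The matches shown do not overlap each other. These are matches of letters, not binding sites.

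Some array channels stood apart, and the values below stand beside them. Both mice on an array belonged to 1 group, the odd replicates labelled with Cy3 and the even ones with Cy5, and both arrays of a group were on a slide of their own, and an effect of the slide cannot be told apart from the group. In the Cy5 channels of both MRL/+ arrays the median of the dark negative control spots, 209 and 202, lay above the median spot, 180 and 145. In the other 10 channels the negative controls were at 27.4 to 85.2, below the median spot of 138 to 273. In these same MRL/+ channels 27 and 32 of the 50 spots of the list were dimmer than the median negative control, against 0 to 8 elsewhere. The median spot was 9.22, 2.64, 9.10 and 2.71 times the median negative control in MRL/lpr replicates 1 to 4, 5.35, 1.96, 5.64 and 2.21 times in Fn14ko and 4.49, 0.860, 3.98 and 0.718 times in MRL/+. Within each dye the median spot thus had its highest ratio in MRL/lpr, and no order of the groups is read from such ratios. A second feature touched the first array of Fn14ko and of MRL/+. A few of their spots had a very bright surround, up to 7166.5 and 28862 in Cy3 where the channel median was 31 and 33.5, and the background model then lifted the dimmest signals. The lowest retained signal was 24.8% and 19.4% of the median retained spot in Fn14ko replicates 1 and 2 and 34.4% and 50.03% in MRL/+ replicates 1 and 2, against 6.40% to 23.6% elsewhere. With each local background limited to 5 times the channel's median, those 4 values became 8.10%, 11.2%, 7.03% and 16.1%. This limit was chosen after the fault was seen. Values are given as planned unless they are said to be with the local background capped. Of the 84 values (28 genes in 3 comparisons), 10 changed sign with the cap, none of them past the threshold in either reading by limma, and the median size of the difference was 0.097 log2 units.

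A signal of 1 equals the sample's own median over the spots retained in that fit, not the median spot of the ratios above. Log2 fold changes come from limma with Benjamini-Hochberg adjustment over 17302 genes. As planned, 1 of the 28 quantified genes was past an adjusted p of 0.05 between MRL/lpr and MRL/+, namely Xiap, which was higher in MRL/lpr, where 14.4% of all genes were past it. Between Fn14ko and MRL/+ the count by limma was 0, where 0.954% of all genes were past the threshold. In that comparison 3 of the 28 had an unadjusted limma p under 0.05, beside 21.9% of all genes. The methods' t-test gave 2 unadjusted, beside 15.2%, and 0 after adjustment, beside 0.0116%. Between MRL/lpr and Fn14ko it was 1, Bid, which was lower in MRL/lpr, beside 4.57% of all genes. With the local background capped the counts were 3 (Casp1, Mlkl and Xiap, all higher in MRL/lpr) beside 24.8% of all genes, 1 (Casp2, higher in Fn14ko) beside 13.2%, and 2 (Bid lower and Mlkl higher in MRL/lpr) beside 14.3%. No result about the list is read from these counts.

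**Figure D1:**
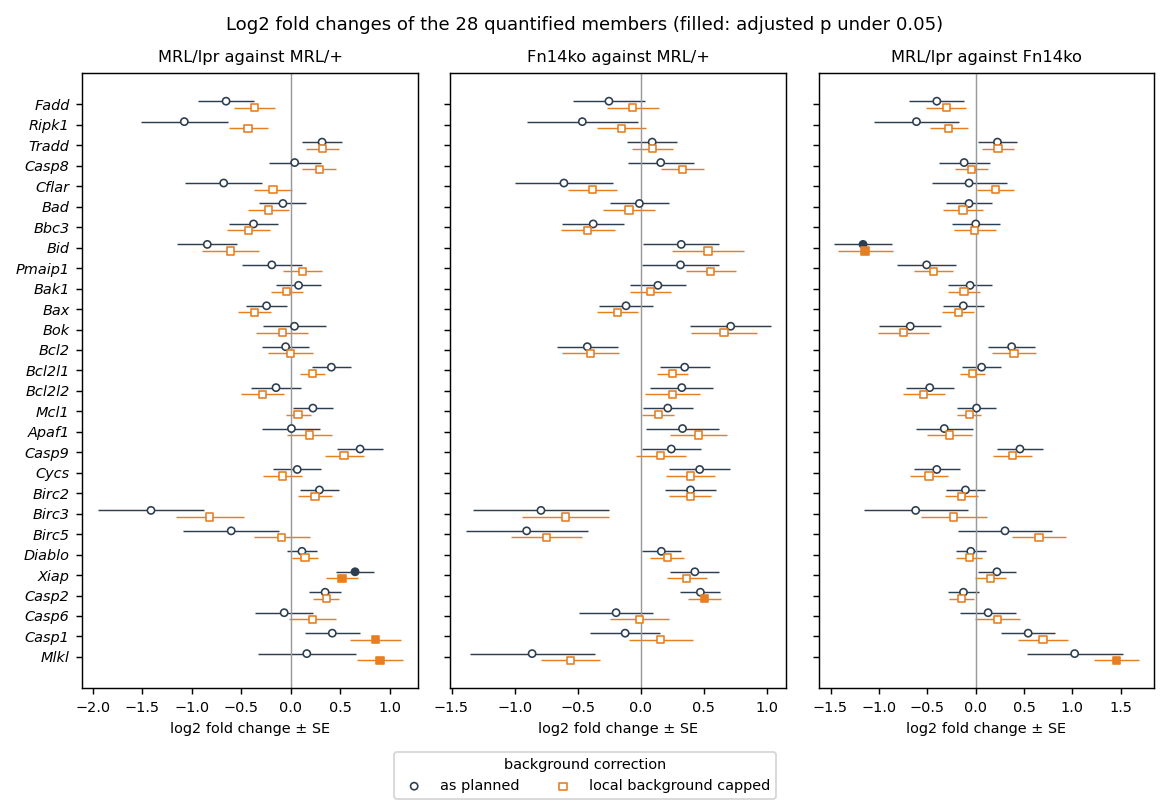
Log2 fold change ± SE of each of the 28 quantified genes (rows) in the 3 comparisons (panels), as planned (circles) and with the local background capped (squares), with filled symbols for an adjusted p under 0.05. Most genes lie within 1 log2 unit of 0, Bid stands at -1.16 and -1.14 between MRL/lpr and Fn14ko, and Mlkl moves from 1.02 to 1.46 there when the cap is applied.

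The values of the list centred near 0. Of the 28 genes, 15 had a log2 fold change above 0 between MRL/lpr and MRL/+, 16 between Fn14ko and MRL/+ and 11 between MRL/lpr and Fn14ko. In these comparisons the median of the list was 0.02, 0.15 and -0.07, beside -0.10, -0.10 and -0.07 over all genes. With the cap the list's medians were 0.04, 0.15 and -0.09, beside -0.07, -0.08 and 0.0025 over all genes. The median standard error of a member was 0.25 as planned and 0.20 with the cap. Scaling to the 75th percentile instead shifted the median of all genes to -0.34, -0.35 and -0.06, so small differences from MRL/+ depend on the choice of scale. The 4 mice of each group did not overlap for 3 of the 28 genes between MRL/lpr and MRL/+ (Casp9, Tradd and Xiap, all with higher values in MRL/lpr), where 23.9% of all genes did not overlap. Between Fn14ko and MRL/+ these were 2 genes (Casp2 and Casp9, with higher values in Fn14ko) beside 13.5%, and between MRL/lpr and Fn14ko 5 genes (Casp1 with higher and Bid, Bok, Cycs and Pmaip1 with lower values in MRL/lpr) beside 20.3%. With the cap the counts were 2 (Tradd and Xiap, with higher values in MRL/lpr) beside 23.3%, 2 (Apaf1 and Casp2, with higher values in Fn14ko) beside 15.8%, and 7 beside 25.8%. These 7 were Casp1 and Mlkl with higher and Bcl2l2, Bid, Bok, Cycs and Pmaip1 with lower values in MRL/lpr. The median within-group SD of the log2 signal was 0.24 for the list and 0.23 for all genes in MRL/lpr, 0.22 and 0.26 in Fn14ko, and 0.40 and 0.38 in MRL/+.

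At the top of the pathway, the Fas ligand Fasl was too dim to be quantified, and neither the adaptors nor Ripk1 passed the threshold. The Fasl probe, at chr1:163711056-163711115 of mm9, did not pass the filter on dim spots. Its foreground was 3.34, 1.45, 3.98 and 1.41 times the median negative control in MRL/lpr replicates 1 to 4, 1.38, 0.836, 1.64 and 1.11 times in Fn14ko, and 1.18, 0.487, 0.877 and 0.360 times in MRL/+. Without the filter its signal was 0.424, 0.595, 0.496 and 0.578 in MRL/lpr, 0.727, 0.617, 0.343 and 0.532 in Fn14ko and 0.819, 0.828, 0.364 and 0.448 in MRL/+, and the groups overlapped. The scanner software called the spot well above background in 2 of 4 MRL/lpr mice and in none of the others.

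Fadd, the adaptor that links Fas to caspase-8, was measured by a probe at chr7:151764228-151764267 of mm9. Its signal was 0.267, 0.394, 0.310 and 0.350 in MRL/lpr, 0.545, 0.562, 0.304 and 0.372 in Fn14ko, and 0.501, 0.644, 0.313 and 0.689 in MRL/+. The groups overlapped. The log2 fold change between MRL/lpr and MRL/+ was -0.65 (SE 0.28, limma adjusted p = 0.125), and with the cap -0.37 (SE 0.21, adjusted p = 0.209).

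Ripk1, the kinase that joins death receptors to survival signaling or necroptosis, was measured at chr13:34125152-34125211 of mm9. Its signals were 0.138, 0.177, 0.124 and 0.167 in MRL/lpr, 0.315, 0.269, 0.164 and 0.197 in Fn14ko, and 0.387, 0.536, 0.152 and 0.315 in MRL/+. With the cap replicates 1 and 2 had 0.171 and 0.197 in Fn14ko and 0.147 and 0.237 in MRL/+. The probe was well above background in 2 MRL/lpr, 4 Fn14ko and 2 MRL/+ mice. In MRL/+ replicates 2 and 4 its foreground was 0.589 and 0.438 times the median negative control. The log2 fold change between MRL/lpr and MRL/+ was -1.07 (SE 0.44, limma adjusted p = 0.107) as planned and -0.43 (SE 0.20, adjusted p = 0.129) with the cap. Tradd, an adaptor of the TNF receptor, was 1.03 to 1.62 in MRL/lpr, 0.878 to 1.23 in Fn14ko and 0.956 to 1.01 in MRL/+. The MRL/lpr and MRL/+ mice did not overlap, but the log2 fold change of 0.32 (SE 0.20, limma adjusted p = 0.256) did not pass the threshold.

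Casp8, the initiator caspase of death receptors, gave no difference past the threshold. Its probe lies at chr1:58901601-58901660 of mm9. Its signal was 0.377, 0.659, 0.491 and 0.532 in MRL/lpr, 0.605, 0.614, 0.442 and 0.549 in Fn14ko, and 0.538, 0.657, 0.280 and 0.588 in MRL/+. All 3 groups overlapped. Its log2 fold change was 0.04 between MRL/lpr and MRL/+, 0.16 between Fn14ko and MRL/+ and -0.12 between MRL/lpr and Fn14ko, each with an SE of 0.26. With the cap these were 0.29, 0.33 and -0.04. Cflar, its inhibitor, averaged over 4 probes, was 0.199, 0.273, 0.215 and 0.232 in MRL/lpr, 0.349, 0.308, 0.175 and 0.173 in Fn14ko, and 0.432, 0.556, 0.203 and 0.361 in MRL/+. The groups overlapped here too, and the log2 fold change between MRL/lpr and MRL/+ was -0.68 (SE 0.39, limma adjusted p = 0.219) and -0.18 with the cap (SE 0.19, adjusted p = 0.508). Between MRL/lpr and Fn14ko it was -0.07 (limma adjusted p = 0.951), and 0.20 with the cap (adjusted p = 0.507).

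The 4 Cflar probes gave different values. Tested singly with the cap, the probe at chr1:58810660-58810719 of mm9 was 1.61 log2 units higher in MRL/lpr than in Fn14ko (SE 0.25, limma adjusted p = 0.00200 over all probes). Between Fn14ko and MRL/+ its log2 fold change was -0.97 (SE 0.25, limma adjusted p = 0.0262). As planned these were 1.12 (SE 0.54, adjusted p = 0.307) and -1.14 (SE 0.54, adjusted p = 0.222) by limma. The probes at chr1:58770546-58770605, chr1:58789994-58790053 and chr1:58811116-58811175 had -0.22, -0.19 and -0.14 between MRL/lpr and Fn14ko with the cap, and -0.13, 0.04 and -0.63 between Fn14ko and MRL/+. Between MRL/lpr and MRL/+ the last of these was past the threshold with the cap, at -0.77 (SE 0.23, limma adjusted p = 0.0280), where the probe at chr1:58810660-58810719 had 0.64 (SE 0.25, adjusted p = 0.0758) and the other two -0.35 and -0.15. The foreground of the divergent probe was 9.51, 3.57, 8.96 and 2.80 times the negative controls in MRL/lpr, 2.72, 0.915, 2.02 and 0.874 times in Fn14ko, and 3.13, 0.579, 2.41 and 0.445 times in MRL/+. The Cy5 mice of Fn14ko and MRL/+ were below the controls. This probe was singled out after its values were seen.

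**Figure D2:**
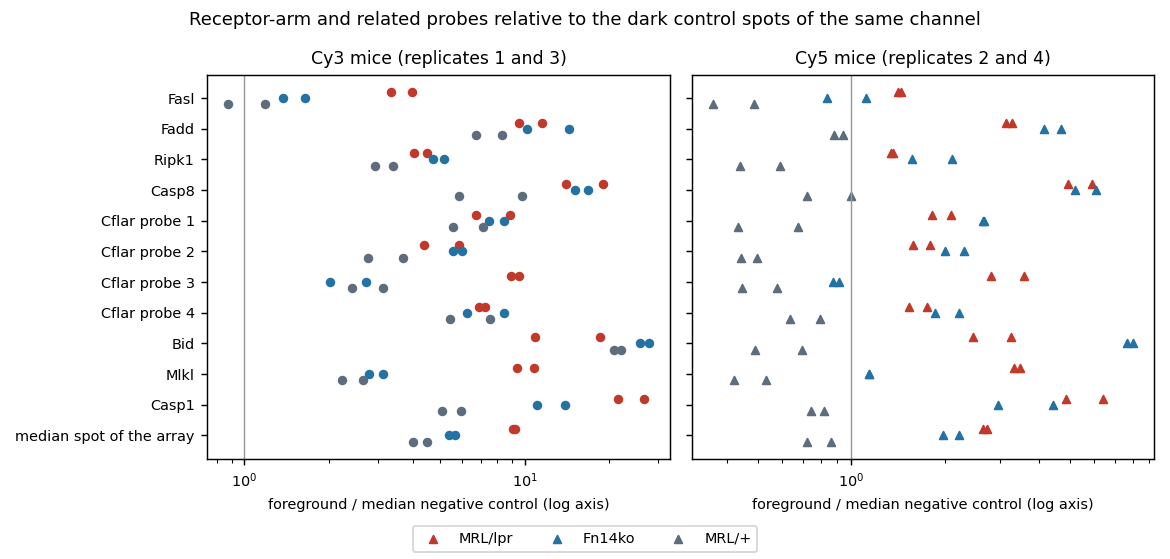
Foreground of the probes of the receptor arm, Bid, Mlkl and Casp1 and of the median spot of the array, divided by the median negative control of the same channel (log axis), for the Cy3 mice (left panel) and the Cy5 mice (right panel), with groups by color and a line at 1. The median spot in the bottom row has its highest ratios in MRL/lpr in both dyes, so high ratios there are shared with a typical spot, while for Bid in Cy3 the MRL/lpr mice have the lowest ratios, at 18.6 and 10.9, and all MRL/+ points in Cy5 lie below 1.

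Bid, the BH3-only protein that caspase-8 cleaves, was the member past the threshold between MRL/lpr and Fn14ko as planned. Its probe lies at chr6:120843464-120843523 of mm9, on the minus strand. The signal was 0.492, 0.383, 0.295 and 0.285 in the 4 MRL/lpr mice, 0.827, 0.880, 0.801 and 0.684 in the Fn14ko mice, and 0.874, 0.574, 0.924 and 0.353 in the MRL/+ mice. Every MRL/lpr mouse was below every Fn14ko mouse. The means were 0.364 ± 0.0964, 0.798 ± 0.0827 and 0.681 ± 0.268 (SD, 4 mice each). Bid was lower in MRL/lpr than in Fn14ko, at a log2 fold change of -1.16 (SE 0.30, limma adjusted p = 0.0464), with a two-sided exact permutation p of 0.0286, the smallest that 4 mice against 4 allow. With the cap it was -1.14 (SE 0.28, limma adjusted p = 0.0219). In the same comparison 4 of 6 oligodendrocyte and 3 of 5 choroid plexus markers were lower in MRL/lpr with the cap, and their part in the Bid value was not tested.

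In MRL/+ the Bid signal split by dye. The Cy3 mice had 0.874 and 0.924, close to the highest Fn14ko value, while the Cy5 mice had 0.574 and 0.353, and in these the foreground was 0.693 and 0.489 times the median negative control. Against MRL/+ the MRL/lpr mice had a log2 fold change of -0.84 (SE 0.30, limma adjusted p = 0.0762) as planned and -0.61 (adjusted p = 0.136) with the cap. Leaving out the MRL/+ Cy5 mice gave -1.27 (limma adjusted p = 0.0175) and, with the cap, -1.24 (adjusted p = 0.00792). Over the Cy3 mice of all groups it was -1.24 (limma adjusted p = 0.0118) as planned and -1.20 (adjusted p = 0.0336) with the cap. Fn14ko against MRL/+ gave 0.32 with all mice (limma adjusted p = 0.489) and -0.11 without the MRL/+ Cy5 mice (adjusted p = 0.946).

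The call of Bid between MRL/lpr and Fn14ko sat close to the threshold. As planned it was lost when any of 8 mice was left out, namely MRL/lpr replicates 1, 3 and 4, Fn14ko replicates 1 to 4 and MRL/+ replicate 3, with limma adjusted p from 0.0510 to 0.160. With the cap it was lost without Fn14ko replicate 2 (-0.98, limma adjusted p = 0.0692), Fn14ko replicate 4 (-1.11, adjusted p = 0.0616) or MRL/+ replicate 3 (-1.14, adjusted p = 0.0756). Over the Cy3 mice alone it held as planned (-1.10, limma adjusted p = 0.0427) and was lost with the cap (-1.06, adjusted p = 0.0846). It was also lost with the negative controls as background (-1.21, limma adjusted p = 0.0524). All 51 alternatives gave a value below 0, from -1.46 to -0.87, and 30 of them were past the threshold. In this and later such counts the methods' t-test before adjustment is among the alternatives and was judged by its unadjusted p.

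The other BH3-only proteins gave no difference past the threshold as genes, although a single Bad probe did, as given below. Pmaip1 (NOXA), a p53 target, was 0.325 to 0.390 in MRL/lpr and 0.393 to 0.661 in Fn14ko, groups that did not overlap. They differed by -0.51 log2 units (SE 0.30, limma adjusted p = 0.411), and -0.44 with the cap (adjusted p = 0.158). Bbc3 (PUMA), also a p53 target, had 1.02 to 1.54 in MRL/lpr, 1.09 to 1.49 in Fn14ko and 1.26 to 2.52 in MRL/+. Bad, which binds BCL2 and BCL-XL, had log2 fold changes of -0.08, -0.01 and -0.07, in the order MRL/lpr to MRL/+, Fn14ko to MRL/+ and MRL/lpr to Fn14ko that is kept for every such triplet below. Bik was not well above background in any mouse, and Bcl2l11 (BIM) in 1 MRL/lpr mouse.

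**Figure D3:**
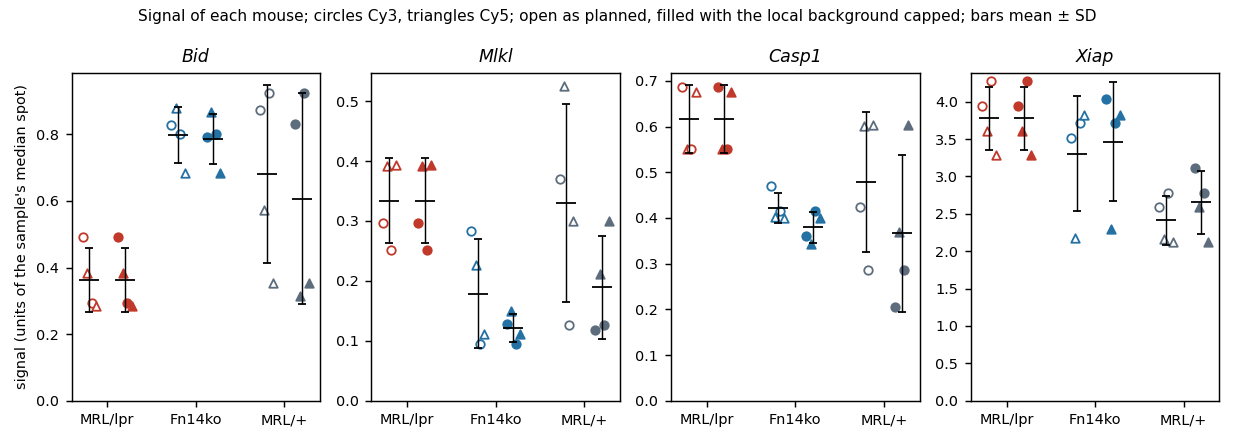
Signal of each mouse for Bid, Mlkl, Casp1 and Xiap in units of the sample's median retained spot, by group, with circles for Cy3 and triangles for Cy5 mice, open symbols as planned and filled symbols with the local background capped, and bars for the mean ± SD. The 4 MRL/lpr mice lie below the Fn14ko mice for Bid, above them for Casp1, and for Mlkl above all of them with the cap.

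Among the pore formers, Bax and Bak1 did not pass the threshold in any comparison, with log2 fold changes of Bax at -0.24, -0.12 and -0.13 and of Bak1 at 0.08, 0.14 and -0.06. Bok, a relative of BAX and BAK, was 1.95 to 2.64 in MRL/lpr and 2.87 to 3.96 in Fn14ko, without overlap. Its log2 fold change between them was -0.68 (SE 0.32, limma adjusted p = 0.280), and -0.75 with the cap (SE 0.26, adjusted p = 0.0803). Against MRL/+ the value in MRL/lpr was 0.04, and -0.08 with the cap (limma adjusted p = 0.832). The MRL/+ mice again split by dye, at 3.31 and 3.32 in Cy3 against 1.60 and 1.25 for Cy5. Of the 4 anti-apoptotic relatives none passed the threshold by limma in any comparison, as planned or with the cap, when the spots of a gene were averaged. Bcl2l1 rests on a linear mean in which the brighter of its probes weighs most, and its other probe passed the threshold singly, as given below. Mcl1 had log2 fold changes of 0.22, 0.21 and 0.01, Bcl2 of -0.05, -0.42 and 0.37, and Bcl2l2 (BCL-W) of -0.15, 0.33 and -0.47. The mean of the Bcl2l1 (BCL-XL) probes had 0.41, 0.35 and 0.06.

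The apoptosome genes did not pass the threshold either. Casp9, its caspase, was 5.27, 5.79, 4.01 and 7.79 in MRL/lpr, 3.80, 4.11, 4.21 and 4.06 in Fn14ko, and 3.49, 3.59, 3.69 and 2.95 in MRL/+. Neither lpr group overlapped MRL/+, with log2 fold changes of 0.70 (SE 0.23, limma adjusted p = 0.0623) and 0.24 (SE 0.23, adjusted p = 0.501). With the cap MRL/+ replicates 1 and 2 had 4.32 and 4.54, and the groups overlapped. Cycs, cytochrome c, was 3.02 to 3.71 in MRL/lpr and 4.00 to 5.14 in Fn14ko, with a log2 fold change of -0.40 (SE 0.24, limma adjusted p = 0.409). Apaf1, the scaffold, had log2 fold changes of 0.01, 0.33 and -0.32.

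Xiap, the inhibitor that binds caspases directly, was the only member past the threshold between MRL/lpr and MRL/+ as planned. Its probe lies at chrX:39462720-39462779 of mm9 and was well above background in all 12 mice. The signal was 3.94, 3.61, 4.27 and 3.29 in MRL/lpr, 3.52, 2.18, 3.72 and 3.82 in Fn14ko, and 2.59, 2.16, 2.78 and 2.12 in MRL/+. Each MRL/lpr mouse was above each MRL/+ mouse, and 3 of the 4 Fn14ko mice lay within the MRL/lpr range. The means were 3.78 ± 0.423, 3.31 ± 0.764 and 2.41 ± 0.324 (SD, 4 mice each). The log2 fold change between MRL/lpr and MRL/+ was 0.65 (SE 0.20, limma adjusted p = 0.0434) and with the cap 0.52 (SE 0.16, adjusted p = 0.0341). Between MRL/lpr and Fn14ko it was 0.22 (SE 0.20, limma adjusted p = 0.622).

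The call of Xiap depended on single mice. It was lost as planned without any of MRL/lpr replicates 1 to 4, Fn14ko replicate 3 or MRL/+ replicates 1, 2 and 4, with limma adjusted p from 0.0528 to 0.189. Without both MRL/+ Cy5 mice the value was 0.63 (limma adjusted p = 0.206), and with the cap 0.51 (adjusted p = 0.130). With the cap the call was also lost without any of MRL/lpr replicates 1 to 4, Fn14ko replicate 3 or MRL/+ replicates 3 and 4, and the values without 1 mouse ran from 0.46 to 0.58 (limma adjusted p up to 0.136). All 54 alternatives gave a value above 0, from 0.23 to 1.25. Of these 20 were past the threshold, with the methods' t-test before adjustment again judged by its unadjusted p.

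The other genes of the inhibitor group did not pass the threshold. Birc2 (cIAP1) had log2 fold changes of 0.29, 0.40 and -0.11, Birc3 (cIAP2) of -1.41, -0.79 and -0.62, and Birc5 (survivin) of -0.60, -0.90 and 0.30. The Birc3 value between MRL/lpr and MRL/+, the furthest from 0 in that comparison, had a limma adjusted p of 0.0907 and became -0.82 with the cap (adjusted p = 0.101). Diablo (SMAC), which frees caspases from these inhibitors, had 0.11, 0.16 and -0.05.

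Casp2, a stress-activated initiator caspase, was past the threshold between Fn14ko and MRL/+ with the cap. Its probe lies at chr6:42232367-42232426 of mm9. The signal was 1.29, 1.28, 1.12 and 0.920 in MRL/lpr, 1.23, 1.31, 1.31 and 1.14 in Fn14ko, and 0.957, 0.959, 0.839 and 0.838 in MRL/+. Every Fn14ko mouse was above every MRL/+ mouse. Fn14ko against MRL/+ gave 0.47 (SE 0.16, limma adjusted p = 0.138) as planned and 0.51 (SE 0.13, adjusted p = 0.0312) with the cap. The capped call was lost without any of Fn14ko replicates 1 to 4 or MRL/+ replicates 3 and 4, with values from 0.46 to 0.56 over the mice left out (limma adjusted p up to 0.111), and without both MRL/+ Cy5 mice (0.56, adjusted p = 0.142). Casp6, an executioner, had log2 fold changes of -0.07, -0.20 and 0.13. Casp2, Casp9, Mlkl and Casp1 were chosen for display by mouse after their values were seen.

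Mlkl, the executor of necroptosis, did not pass the threshold as planned and passed it with the cap. Its probe lies at chr8:113835700-113835759 of mm9, on the minus strand, and was well above background in 4 MRL/lpr, 2 Fn14ko and 2 MRL/+ mice. The signal was 0.296, 0.393, 0.252 and 0.394 in MRL/lpr. In Fn14ko it was 0.283, 0.226, 0.0942 and 0.112 as planned, and 0.128 and 0.149 in replicates 1 and 2 with the cap. In MRL/+ it was 0.371, 0.525, 0.126 and 0.301 as planned, and 0.118 and 0.212 in replicates 1 and 2 with the cap. With the cap every MRL/lpr mouse was above every Fn14ko mouse and above every MRL/+ mouse but replicate 4.

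The difference of Mlkl between MRL/lpr and Fn14ko in log2 units was 1.02 (SE 0.50, limma adjusted p = 0.294) as planned and 1.46 (SE 0.23, adjusted p = 0.00227) with the cap. The capped value was past the threshold with each of the 12 mice left out in turn, from 1.31 to 1.61 (limma adjusted p at most 0.0141), and over the Cy3 mice alone it was 1.31 (adjusted p = 0.0404). As planned the value over the Cy3 mice was 0.74 (limma adjusted p = 0.835), and without both MRL/+ Cy5 mice 1.02 (adjusted p = 0.379). The size of the difference is uncertain, since 2 of the 4 Fn14ko mice had the probe well above background and the foreground of the Fn14ko Cy5 mice was 1.14 and 1.14 times the median negative control. All 51 alternatives gave a value above 0, from 0.37 to 3.01. Of these 20 were past the threshold, with the methods' t-test before adjustment judged by its unadjusted p.

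The log2 fold change of Mlkl in MRL/lpr against MRL/+ was 0.16 (limma adjusted p = 0.831) as planned, 0.90 (SE 0.23, adjusted p = 0.0160) with the cap, and 1.24 (adjusted p = 0.00404) with the cap and without both MRL/+ Cy5 mice. As planned it was 0.48 without those mice (limma adjusted p = 0.688) and 0.34 over the Cy3 mice alone (adjusted p = 0.846). The capped call was lost without MRL/lpr replicate 1 (0.84, limma adjusted p = 0.0514) or MRL/+ replicate 3 (0.78, adjusted p = 0.0985). The foreground, on which no background model acts, was 10.8, 3.31, 9.37 and 3.48 times the median negative control in MRL/lpr, 3.12, 1.14, 2.79 and 1.14 times in Fn14ko, and 2.64, 0.531, 2.24 and 0.420 times in MRL/+. These ratios stand beside those of the median spot given above, which are also highest in MRL/lpr. Ripk3, the kinase that activates MLKL, could not be set beside it. Its only spot was marked as faulty by the scanner software, with a foreground of 325 and 289 times the negative controls in MRL/lpr replicates 3 and 4, which share an array, against 0.706 to 2.27 times in the other 10 mice.

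Casp1, the caspase that matures interleukin-1β, was higher in MRL/lpr than in MRL/+ with the cap. Its probe lies at chr9:5307206-5307265 of mm9. The signal was 0.687, 0.551, 0.552 and 0.677 in MRL/lpr, 0.470, 0.401, 0.415 and 0.401 in Fn14ko, and 0.423, 0.601, 0.287 and 0.604 in MRL/+. With the cap Fn14ko replicates 1 and 2 had 0.360 and 0.342, and MRL/+ replicates 1 and 2 had 0.206 and 0.370. Every MRL/lpr mouse was above every Fn14ko mouse in both readings. The MRL/lpr and MRL/+ mice overlapped in both, with MRL/+ replicate 4 at 0.604. Set against Fn14ko, MRL/lpr had a Casp1 log2 fold change of 0.54 (SE 0.28, limma adjusted p = 0.326) and 0.70 (SE 0.25, adjusted p = 0.0902) with the cap.

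Against MRL/+ the Casp1 log2 fold change in MRL/lpr was 0.42 (SE 0.28, limma adjusted p = 0.284) as planned and 0.85 (SE 0.25, adjusted p = 0.0306) with the cap. The latter call was lost without MRL/lpr replicate 1 (0.73, limma adjusted p = 0.0837), MRL/lpr replicate 3 (0.86, adjusted p = 0.0547), MRL/lpr replicate 4 (0.86, adjusted p = 0.0502) or MRL/+ replicate 3 (0.74, adjusted p = 0.161). With the cap and without both MRL/+ Cy5 mice the value was 1.35 (limma adjusted p = 0.00374), and over the Cy3 mice alone 1.34 (adjusted p = 0.0199). As planned these were 0.85 (limma adjusted p = 0.1003) and 0.82 (adjusted p = 0.127), short of the threshold. Over 51 alternatives the Casp1 value against MRL/+ was above 0 in each, from 0.18 to 1.75. Of these 15 were past the threshold, with the methods' t-test before adjustment judged by its unadjusted p. Relative to the negative controls the foreground was 26.7, 4.88, 21.5 and 6.38 in MRL/lpr, 11.1, 2.95, 13.9 and 4.42 in Fn14ko, and 5.07, 0.817, 5.93 and 0.743 in MRL/+, an order that the median spot shares. The inflammatory caspases Casp4 and Casp12 did not pass the filter. The better detected Casp4 probe was well above background in 2 MRL/lpr, 4 Fn14ko and 1 MRL/+ mice, and Casp12 in none.

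**Figure D4:**
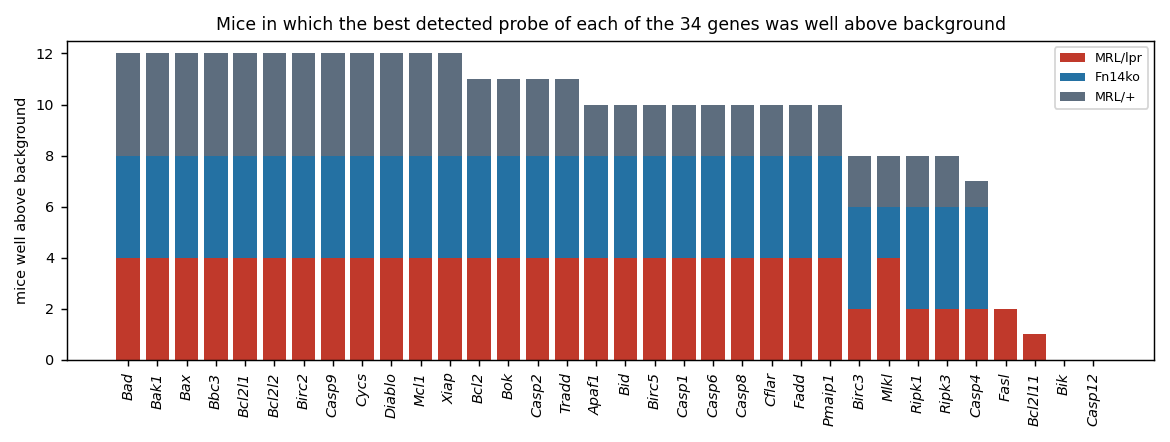
Number of mice of each group (stacked bars, 4 mice a group) in which the best detected probe of each of the 34 genes was called well above background by the scanner software. The bars reach 12 for 12 genes, lie between 1 and 11 for 20, and are 0 for Bik and Casp12.

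Detection set the limit for many genes of the list. A probe was well above background in all 12 mice for 12 genes, in 1 to 11 mice for 20, and in none for Bik and Casp12. The 6 genes without a quantified spot were Casp4, Casp12, Bcl2l11, Bik, Ripk3 and Fasl. Of the 8 quantified genes on several retained spots, the probes had opposite signs in 5 between MRL/lpr and MRL/+, in 5 between Fn14ko and MRL/+ and in 3 between MRL/lpr and Fn14ko. The widest gap between MRL/lpr and MRL/+ was in Bcl2l1, where one probe had a log2 fold change of -1.72 (SE 0.34, limma adjusted p = 0.00632) and the other of 0.45 (SE 0.21, adjusted p = 0.140). With the cap the first had -1.55 (limma adjusted p = 0.000305), and -1.38 between Fn14ko and MRL/+ (adjusted p = 0.00192). This first probe was dim, at 0.166 to 0.204 in MRL/lpr where the other had 19.95 to 27.9. It was well above background in 3 MRL/lpr, 4 Fn14ko and 2 MRL/+ mice. Its foreground was 1.39 and 1.74 times the median negative control in the MRL/lpr Cy5 mice and 1.15 and 0.773 times in those of MRL/+. One Bad probe had -1.12 (SE 0.23, limma adjusted p = 0.00783) and the other 0.05 (SE 0.28, adjusted p = 0.903). With the cap the first Bad probe had -1.03 (limma adjusted p = 0.00211), and -1.07 between Fn14ko and MRL/+ (adjusted p = 0.00446).

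Other genes of the pathway were read from a list of 40, of which 35 were quantified. As planned, 2 passed the threshold between MRL/lpr and MRL/+ (beside 14.4% of all genes), 2 between Fn14ko and MRL/+ (0.954%) and 1 between MRL/lpr and Fn14ko (4.57%). Trp53, which encodes p53, an inducer of Bbc3, Pmaip1 and Bax, was 0.149 to 0.251 in MRL/lpr, 0.109 to 0.291 in Fn14ko and 0.666 to 0.953 in MRL/+. Its log2 fold change against MRL/+ was -2.16 (SE 0.35, limma adjusted p = 0.00235) in MRL/lpr and -2.09 (SE 0.35, adjusted p = 0.0194) in Fn14ko. Tnfrsf21, the death receptor DR6, had -1.95 in MRL/lpr (SE 0.31, limma adjusted p = 0.00211) and -1.54 in Fn14ko (SE 0.31, adjusted p = 0.0367). Both comparisons share the MRL/+ mice.

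Fas itself was measured by 1 probe, at 0.165, 0.284, 0.171 and 0.191 in MRL/lpr, 0.331, 0.270, 0.171 and 0.183 in Fn14ko, and 0.458, 0.647, 0.186 and 0.643 in MRL/+. As planned the 3 highest values were in MRL/+, and its replicate 3 lay within the other groups. With the cap MRL/+ replicates 1 and 2 had 0.260 and 0.455, so replicate 1 lay below MRL/lpr replicate 2. In the MRL/+ Cy5 mice, which then had the highest values, the Fas foreground was 0.973 and 0.808 times the median negative control. The log2 fold change against MRL/+ was -1.14 (SE 0.45, limma adjusted p = 0.1003) in MRL/lpr and -0.92 (SE 0.45, adjusted p = 0.249) in Fn14ko, and with the cap -0.81 (SE 0.27, adjusted p = 0.0505) and -0.90 (SE 0.27, adjusted p = 0.0510). Tested as a single probe over all probes, the same values had limma adjusted p of 0.0984 and 0.237 as planned. With the cap these were 0.0476 and 0.0455, past the threshold, so the capped values lie close to it. Whether the probe lies within the part that the lpr mutation alters is not known here, so this value does not check the genotype.

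Tnfrsf12a, the gene removed in Fn14ko, was 0.739, 0.777, 0.604 and 0.655 there, 1.86, 1.57, 1.90 and 1.39 in MRL/lpr, and 1.02, 1.18, 0.943 and 1.28 in MRL/+. Every Fn14ko mouse was below every other mouse. MRL/lpr against Fn14ko gave a log2 fold change of 1.27 (SE 0.19, limma adjusted p = 0.00287). The foreground in Fn14ko was still 6.96 to 22.4 times the negative controls, and the position of the probe relative to the deletion is not known here.

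With the cap, 9 of the 35 genes were past the threshold between MRL/lpr and MRL/+ (beside 24.8% of all genes), 6 between Fn14ko and MRL/+ (13.2%) and 4 between MRL/lpr and Fn14ko (14.3%), by limma. Shares of this size are near those of all genes and are no result about this list. In the first comparison Trp53 (-2.12), Tnfrsf21 (-2.08), the caspase substrate Parp1 (-0.91), the apoptosis repressor Nol3 (-0.64), the mitochondrial flavoprotein Aifm1 (-0.64) and the nuclease Endog (-0.54) were lower in MRL/lpr. Tnfrsf25 (1.01), the death receptor DR3, Tnfrsf12a (0.58) and Tnfrsf1a (0.41), a TNF receptor, were higher. Between Fn14ko and MRL/+ the genes were Trp53 (-2.42), Tnfrsf21 (-1.68), Tnfrsf12a (-0.73), the adaptor Cradd (0.64), the mitophagy receptor Bnip3l (0.59) and Tnfrsf1a (0.49). Between MRL/lpr and Fn14ko they were Tnfrsf12a (1.31), the nuclease Dffb (1.21), Parp1 (-0.90) and Nol3 (-0.45).

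Cell type markers were read beside these genes, and their part in the differences was not tested. All 6 neuron, 6 astrocyte, 7 microglia and 6 oligodendrocyte markers were quantified, as the tissue label cortex requires. The summed neuron signal was 113 to 121 in MRL/lpr, 110 to 136 in Fn14ko and 118 to 167 in MRL/+, and that of microglia 33.1 to 51.3, 35.8 to 46.7 and 35.5 to 45.8. The astrocyte sum was 98.9 to 196, 99.4 to 114 and 93.1 to 131, and the oligodendrocyte sum 42.0 to 62.6, 61.6 to 81.4 and 61.3 to 74.6. With the cap the neuron sum was 131 to 142 in Fn14ko and 135 to 167 in MRL/+, so the MRL/lpr mice lay below both groups. The oligodendrocyte sum with the cap was 61.6 to 96.9 in Fn14ko and 65.5 to 82.9 in MRL/+, and the MRL/lpr mice lay below MRL/+ without overlap. The endothelial and blood sums did not overlap between MRL/lpr and MRL/+ in either reading. The 5 endothelial markers summed to 13.1 to 16.4 in MRL/lpr, 6.83 to 14.5 in Fn14ko and 7.99 to 10.6 in MRL/+, and the 3 blood markers to 91.3 to 230, 32.9 to 95.2 and 24.3 to 46.8. Of 7 lymphocyte markers 3 were quantified, with a sum of 7.50 to 10.8, 4.56 to 7.37 and 6.17 to 13.4. The 5 choroid plexus markers summed to 21.1 to 152, 31.3 to 289 and 29.5 to 304, with overlap of all groups.

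Some single markers were past the threshold by limma in the comparisons where members were called. As planned between MRL/lpr and MRL/+ these were 2 of 6 neuron markers (1 higher in MRL/lpr), 1 of 7 microglia markers (Aif1, higher, 1.17), 1 of 6 oligodendrocyte markers (lower), 1 of 5 choroid plexus markers (Clic6, lower, -2.51), 1 of 5 endothelial markers (Flt1, higher, 1.07) and 1 of 3 blood markers (Hba-a1, higher, 2.37). With the cap these counts were 3 (1 higher), 1, 3, 1, 1 and 2, in the same directions. Between MRL/lpr and Fn14ko as planned 1 oligodendrocyte marker (Cnp, -1.16) and 1 choroid plexus marker (Clic6, -2.96) were lower in MRL/lpr. With the cap 4 oligodendrocyte, 3 choroid plexus and 1 neuron markers were lower and 2 blood markers higher in MRL/lpr. Between Fn14ko and MRL/+ 1 neuron, 1 lymphocyte, 1 endothelial and 1 blood marker were lower in Fn14ko with the cap and were not past the threshold as planned. The part of these cell types in the values of Bid, Mlkl, Casp1, Casp2 and Xiap was not tested.

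**Figure D5:**
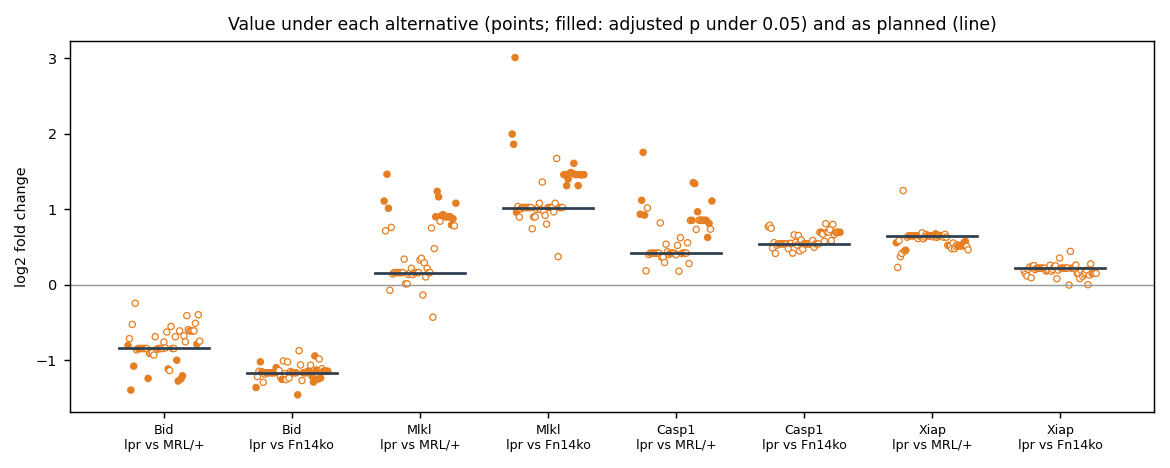
Log2 fold change of Bid, Mlkl, Casp1 and Xiap in MRL/lpr against MRL/+ and against Fn14ko as planned (dark line) and under each alternative (points). Points are filled where the adjusted p is under 0.05, or the unadjusted p for the methods' t-test before adjustment. Bid against Fn14ko lies between -1.46 and -0.87, Mlkl against Fn14ko spreads from 0.37 to 3.01, and Xiap against MRL/+ from 0.23 to 1.25.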

How the data were processed

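Cortical RNA of 12 mice was measured on 6 two-color Agilent arrays, 2 mice of a group per array. The deposited files hold foreground and local background intensities per spot with quality flags, written per the file headers by Feature Extraction 12.1.0.3. As in the study's methods, marked spots and spots below 2 times the local background in any sample were left out. The study's iterative scaling within and between arrays to the median gene was not repeated, and each sample was instead divided once by its median retained spot. Of 43020 spots outside the controls, 24255 were retained for 17302 genes. Normexp (offset 50) was applied to foreground and background, spots of a gene were averaged on the linear scale, and log2 values were fitted with limma 3.58.1 in R 4.3.3, with a dye term, the array as a random block (correlation 0.316) and a mean-variance trend. P-values were adjusted over all genes (Benjamini-Hochberg, threshold 0.05). Samples were grouped by the strain in the labels. Each sample was taken as 1 mouse, and p-values measure the spread between these samples. The number of arrays limits the precision. Genes described by mouse were to be the receptor arm (Fasl, Fadd, Casp8, Cflar, Ripk1, Bid) and any gene past the threshold; others were chosen after their values were seen. The members and lists were chosen with earlier results of these data known. Alternatives covered background, scaling, filters, the fit and samples left out; the capped local background and its variants were added after the data were seen. The fit was tested on simulated data. Promoter sequences are from RefSeq.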

Additional observations from a re-analysis of the deposited data

Results flagged for a closer look

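In 2 of 84 groups of 4 mice (2.38%) a single mouse stood apart by Dixon's test, where chance gives about 1 in 20. Xiap was lowest in Fn14ko replicate 2, at 2.175 against 3.516 in the next mouse. Casp6 was highest in MRL/lpr replicate 2, at 0.7639 against 0.4425 in the next. Among spots left out of the comparisons, a Casp4 probe was well above background in 2 Fn14ko mice and 0 MRL/+ mice, and the Fasl probe in 2 MRL/lpr mice and 0 MRL/+ mice. The better detected Casp4 probe, given above with Casp1, was also well above background in an MRL/+ mouse.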

How the results depend on the processing

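The counts past the threshold moved with the processing, while the sign of the leading genes mostly held. Counts are given for MRL/lpr against MRL/+, Fn14ko against MRL/+ and MRL/lpr against Fn14ko, first for the 28 members and then for the 35 other pathway genes, where the planned counts were 1, 0 and 1 and 2, 2 and 1. Shares of all genes are given above only for the planned and capped fits and for the methods' t-test between Fn14ko and MRL/+. The counts under the other settings stand without such a share, and no result about either list is read from them. With plain background subtraction the counts were 6, 1 and 2, then 12, 8 and 7. With the negative controls as background the counts were 2, 0 and 1, then 8, 3 and 2. With the scanner's processed signal the counts were 5, 0 and 2, then 8, 2 and 5. With loess and Aquantile normalization the counts were 2, 2 and 3, then 11, 5 and 4. With scaling to the 75th percentile the counts were 1, 0 and 1, then 6, 2 and 2. With no filter on dim spots the counts were 0, 0 and 0, then 0, 0 and 0. With only spots well above background in all 12 mice the counts were 0, 0 and 0, then 5, 1 and 3. With only spots above the negative controls in all 12 mice the counts were 1, 0 and 0, then 6, 2 and 3. With marked spots kept the counts were 0, 0 and 0, then 2, 2 and 1. With no dye term the counts were 1, 0 and 1, then 6, 2 and 1. With no array block the counts were 4, 1 and 1, then 11, 4 and 2. With no trend the counts were 0, 0 and 0, then 2, 1 and 1. With the mean of log2 values over spots the counts were 3, 0 and 1, then 2, 2 and 1. With each probe tested singly the counts were 3, 0 and 0, then 4, 2 and 1. With the methods' t-test unadjusted the counts were 1, 2 and 5, then 8, 8 and 5. With the methods' t-test after adjustment the counts were 0, 0 and 0, then 3, 0 and 0. With MRL/lpr array 1 left out the counts were 0, 0 and 1, then 2, 2 and 1. With MRL/lpr array 2 left out the counts were 0, 0 and 0, then 2, 2 and 1. With Fn14ko array 1 left out the counts were 1, 0 and 0, then 2, 2 and 1. With Fn14ko array 2 left out the counts were 1, 0 and 0, then 2, 0 and 1. With MRL/+ array 1 left out the counts were 0, 0 and 1, then 5, 3 and 2. With MRL/+ array 2 left out the counts were 4, 0 and 1, then 9, 0 and 2. With the Cy3 mice alone the counts were 1, 0 and 1, then 3, 1 and 1. With both MRL/+ Cy5 mice left out the counts were 1, 0 and 1, then 2, 0 and 1. The following were chosen after seeing the data. With the negative controls as background and filter the counts were 0, 0 and 0, then 5, 2 and 2. With the local background capped the counts were 3, 1 and 2, then 9, 6 and 4. With the cap and both MRL/+ Cy5 mice left out the counts were 4, 0 and 6, then 6, 2 and 7. With the cap over the Cy3 mice alone the counts were 3, 0 and 1, then 4, 2 and 1. Leaving out 1 mouse, as planned or with the cap, gave 0 to 7, 0 to 6 and 0 to 6 members and 2 to 14, 0 to 15 and 1 to 9 other genes.

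With the replicate block the members' counts were 5, 1 and 1, then 15, 3 and 2 for the other genes. The share of all genes past the threshold with that block is not given here, so no result about the lists is read from these counts. Of the 12 same-numbered pairs of mice, 8 had deviations from the group means correlated over 0.1, and the range was -0.13 to 0.72. All 6 pairs of replicates 2 and 3 lay between 0.26 and 0.72, while mice of another number and the same dye had -0.69 to 0.30. In 13 of 24 combinations of a mouse with another group, the best correlated mouse had the same number. Since not all pairs were over 0.1 and the labels name no shared litter or day, the numbers were not taken to pair the mice.

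Reversed signs were all in values short of the threshold, and the cause was not tested beyond the setting itself. Fn14ko array 1 left out gave Xiap -0.0022, Casp8 0.035 and Cflar 0.39 in MRL/lpr against Fn14ko. The scanner's processed signal gave Bid -0.25, Fadd 0.96 and Casp1 1.01 in Fn14ko against MRL/+, Fadd 0.52 in MRL/lpr against MRL/+ and Cflar 0.28 in MRL/lpr against Fn14ko. The Cy3 mice alone gave Bid -0.14, Fadd 0.039 and Casp1 0.34 in Fn14ko against MRL/+. Both MRL/+ Cy5 mice left out gave Bid -0.11 and Casp1 0.31 in Fn14ko against MRL/+. The cap and both MRL/+ Cy5 mice left out gave Bid -0.10, Fadd 0.19, Ripk1 0.13, Casp1 0.66 and Casp9 -0.036 in Fn14ko against MRL/+, Cflar 0.026 in MRL/lpr against MRL/+ and Cflar 0.20 in MRL/lpr against Fn14ko. The cap over the Cy3 mice alone gave Bid -0.14, Fadd 0.22, Ripk1 0.17 and Casp1 0.67 in Fn14ko against MRL/+ and Cflar 0.10 in MRL/lpr against Fn14ko. The negative controls as background gave Fadd 0.25, Casp1 0.33 and Casp9 -0.18 in Fn14ko against MRL/+ and Cflar 0.31 in MRL/lpr against Fn14ko. Loess and Aquantile normalization gave Fadd 0.21, Cflar 0.11, Ripk1 0.35, Mlkl 0.053, Casp1 0.44 and Casp9 -0.043 in Fn14ko against MRL/+, Cflar 0.12 in MRL/lpr against MRL/+ and Cflar 0.016 in MRL/lpr against Fn14ko. No filter on dim spots gave Fadd 0.47, Cflar 0.12, Ripk1 0.26 and Casp1 0.60 in Fn14ko against MRL/+. Fn14ko array 2 left out gave Fadd 0.11 in Fn14ko against MRL/+. Scaling to the 75th percentile gave Casp8 -0.19 and Mlkl -0.071 in MRL/lpr against MRL/+ and Casp8 -0.090 and Casp9 -0.0063 in Fn14ko against MRL/+. The methods' t-test unadjusted gave Casp8 -0.0023 in MRL/lpr against MRL/+. The methods' t-test after adjustment gave Casp8 -0.0023 in MRL/lpr against MRL/+. MRL/+ array 2 left out gave Casp8 -0.24 and Mlkl -0.43 in MRL/lpr against MRL/+ and Casp8 -0.12 in Fn14ko against MRL/+. Plain background subtraction gave Cflar 0.15 in MRL/lpr against Fn14ko and Casp1 0.17 in Fn14ko against MRL/+. The local background capped gave Cflar 0.20 in MRL/lpr against Fn14ko and Casp1 0.16 in Fn14ko against MRL/+. MRL/+ array 1 left out gave Ripk1 0.067 and Casp1 0.015 in Fn14ko against MRL/+. MRL/lpr array 2 left out gave Casp2 0.044 in MRL/lpr against Fn14ko. The negative controls as background and filter gave Casp9 -0.0076 in Fn14ko against MRL/+. Leaving out 1 mouse gave the ranges that follow, which pool the planned and the capped fits, and each range held both signs. Fadd ran from -0.45 to 0.12 in Fn14ko against MRL/+ and Casp8 from -0.16 to 0.40 in MRL/lpr against MRL/+. Casp8 ran from -0.046 to 0.44 in Fn14ko against MRL/+ and from -0.20 to 0.047 in MRL/lpr against Fn14ko. Cflar ran from -0.25 to 0.30 in MRL/lpr against Fn14ko and Mlkl from -0.13 to 1.08 in MRL/lpr against MRL/+. Casp1 ran from -0.36 to 0.41 in Fn14ko against MRL/+ and Casp9 from -0.0051 to 0.35 in Fn14ko against MRL/+. Of these, Fadd and Casp9 reversed only with the cap, and Mlkl and both Casp8 values against MRL/+ only as planned. Cflar held both signs as planned, from -0.25 to 0.15, and with the cap was above 0 throughout, from 0.073 to 0.30. Casp1, and Casp8 in MRL/lpr against Fn14ko, held both signs in both fits.

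As limits, 22 members rest on 1 spot, and slide cannot be told apart from group. The MRL/+ Cy5 channels had negative controls above the median spot, and 12 of the 34 members had a probe well above background in all mice. The values of some dim members, such as Mlkl and Ripk1, moved with how background was removed. With 4 mice against 4, the smallest exact permutation p is 0.0286.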
